A study of Homo sapiens with 21 samples.

Results

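The cholesterol and fatty acid synthesis genes followed here were 30 genes taken by name from among the 58870 genes of each expression table, which covered 21 RNA-seq libraries of the human BRAF-mutant melanoma cell line A375 in 7 groups of 3. They were listed by pathway name, with no threshold on a measured value, and fell into 7 genes of the mevalonate pathway, 11 genes between squalene and cholesterol, 5 genes of regulation and sterol transport, and 7 genes of fatty acid synthesis and desaturation. The study asked what happens when melanoma cells lose SOX10, the neural crest transcription factor of melanocytes, and how that state relates to tolerance of BRAF and MEK inhibitors. Per the labels, all cells were grown in the same base medium with fetal bovine serum, which itself brings in lipids.

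The groups were as follows. gSOX10 #4 and gSOX10 #2 were A375 cells edited by CRISPR/Cas9 with either of 2 guides against SOX10, with 1 clone per guide and no control clone. CRT35 and CRT34 were lines from A375 tumors of mice that had become tolerant of combined BRAF and MEK inhibition, and their culture medium held 1 µM of PLX4720, which inhibits BRAF, with 35 nM of PD0325901, which inhibits MEK. CRT35 Combo and CRT34 Combo were those lines with both inhibitors, and CRT35 DMSO and CRT34 DMSO the same lines with the solvent, for a time that the labels do not give. Parental A375 was unedited and had no inhibitor, and parental cells with inhibitor were not analysed here. Each knockout is thus 1 clone, each CRT line 1 tumor-derived line, and clone, line and treatment history cannot be told apart from SOX10 loss in comparisons with parental A375. The number in the titles of the gSOX10 #4 libraries is one that the study's methods give to a clone of another melanoma line, so the group is named here by its condition label only. The study calls the libraries of each A375 clone independent replicates, but the labels do not tie the 3 libraries of any group to separate cultures, so p-values measure the spread between these libraries, which may be technical.

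Cells make cholesterol from acetyl-CoA through mevalonate, farnesyl diphosphate and squalene, and make fatty acids from the same acetyl-CoA through malonyl-CoA. Both branches are driven by the SREBP transcription factors: SREBF2 encodes the form that acts mainly on sterol genes and SREBF1 the forms that act mainly on fatty acid genes. SCAP escorts SREBPs to the Golgi, where they are cut and released, and INSIG proteins hold SCAP in the endoplasmic reticulum when sterols are plentiful. INSIG1, STARD4 and most enzymes of the pathway are themselves SREBP targets. The liver X receptors, which sense oxysterols, switch on the cholesterol exporters ABCA1 and ABCG1 and also SREBF1 and SCD.

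SOX10, the edited gene, was low or at 0 in every group but parental A375. Its normalized value was 456, 488 and 517 in gSOX10 #4 and 392, 504 and 459.6 in gSOX10 #2, against 10348, 11877 and 12822 in parental A375, and it was 0 in all CRT35 and CRT34 Combo libraries and at most 6.32 in CRT34 DMSO. Of 10 melanocyte and melanoma markers, MLANA, listed at 0 in every library, and TYR, at most 0.957, were absent already in parental A375. MITF, on the same list, ran from 862 to 10247 over all libraries. The summed value of the list, SOX10 included, was 15005 to 18271 in parental A375 and 4830 to 10936 in CRT34 Combo. It was 2233 to 2990 in CRT34 DMSO, 3123 to 4477 in CRT35 Combo and 1629 to 1726 in CRT35 DMSO. In the clones it was 2019 to 3027 in gSOX10 #4 and 2790 to 3493 in gSOX10 #2. All 7 fibroblast markers stood above every parental library in all 12 CRT libraries, with summed values of 323583 to 527626 in CRT35 Combo, 212642 to 311006 in CRT35 DMSO, 148524 to 172416 in CRT34 Combo and 184384 to 243899 in CRT34 DMSO, against 480.3 to 616 in parental A375. In the clones 3 of these 7 markers in gSOX10 #4 and 5 in gSOX10 #2 stood above every parental library, with sums of 1139 to 1404 and 1986 to 2587. The summed value of 6 leukocyte markers was 3708 to 4510 in gSOX10 #4, 6245 to 8257 in gSOX10 #2, 7685 to 16887 in CRT35 Combo, 7750 to 8348 in CRT35 DMSO, 7040 to 8489 in CRT34 Combo and 3187 to 6167 in CRT34 DMSO, against 1577 to 1698 in parental A375. CD68, a lysosomal protein of macrophages, made up most of these sums, while LYZ reached its highest value, 469, in parental A375 and the defining genes PTPRC and CD3E stayed at or below 44.5 and 3.24. Of 4 adipocyte markers, ADIPOQ and LEP stayed at or below 0.919 and 0.957, PLIN1 at or below 23.8 and CIDEC at or below 87.3. In bulk RNA, fewer cells of a type and less RNA per cell cannot be told apart. The part of the fibroblast and leukocyte genes in the results below was not tested. CRT35 DMSO replicate 1 was the shallowest library, in an estimated range of 27.4 to 75.6 M reads over all 21, and correlations of log2 values were 0.977 to 0.990 within groups and 0.945 to 0.986 between them.

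All 30 members passed the filter on low values. A gene was called changed at a Benjamini-Hochberg adjusted p of at most 0.05 in limma with at least a 2-fold difference, and 9 of the 30 members were called in 1 or more of 11 comparisons, while 21 were called in none. Of all 19290 genes tested, 50.5% were called in 1 or more. Against parental A375, 1 member rose and 2 fell in gSOX10 #4, where 11.8% of all genes were called higher and 8.91% lower. In gSOX10 #2, 1 rose and 0 fell (15.9% and 7.78% of all genes). In CRT35 Combo 3 rose and 0 fell (20.1% and 10.2%), and in CRT35 DMSO 3 rose and 0 fell (15.7% and 7.98%). In CRT34 Combo 4 rose and 0 fell (19.1% and 8.09%), and in CRT34 DMSO 1 rose and 1 fell (15.7% and 7.35%). The p alone, in either direction, was passed by 9 members in gSOX10 #4 (38.0% of all genes), 10 in gSOX10 #2 (43.9%), 11 in CRT35 Combo (51.6%), 10 in CRT35 DMSO (42.2%), 15 in CRT34 Combo (47.8%) and 10 in CRT34 DMSO (41.8%). In none of the 6 comparisons was the share of members called, over both directions, above that of all genes. The 6 comparisons share the 3 parental libraries, so they are not independent of each other. Lack of overlap between groups of libraries, here and above, is description and adds nothing to the p. Its share among all genes is given only for CRT34 Combo above CRT34 DMSO and for gSOX10 #4 below gSOX10 #2.

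The median log2 change of the 30 members was -0.26 in gSOX10 #4, -0.03 in gSOX10 #2, 0.18 in CRT35 Combo, 0.03 in CRT35 DMSO, 0.23 in CRT34 Combo and -0.07 in CRT34 DMSO, beside medians of all genes between 0 and 0.05. Within that narrow middle single members moved far: STARD4 was called higher in all 6 comparisons, as were 3.92% of all genes, and the map of log2 changes shows it as the only row with a filled mark in every column against parental A375.

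**Figure D1:**
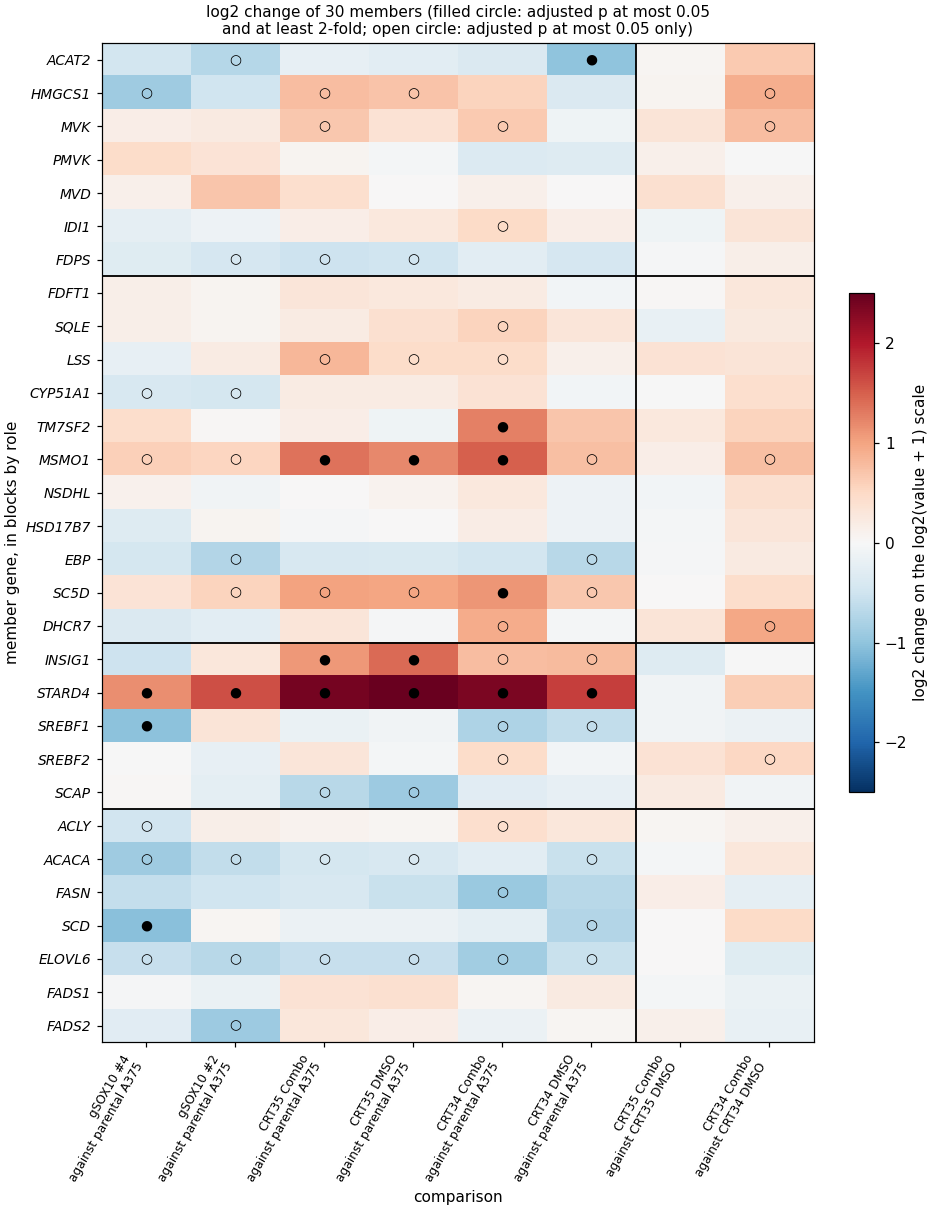
log2 change of each of the 30 members (rows, in blocks by role) in 6 comparisons with parental A375 and in both inhibitor comparisons (columns), with red for higher and blue for lower. Filled circles mark changes called at adjusted p of at most 0.05 and at least 2-fold, open circles those that passed the p alone; STARD4 is filled in 6 columns and no cell is filled in either inhibitor column.

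The bases before the start of 6 members are shown because these genes carry the results below: STARD4, MSMO1 and INSIG1 rose in CRT cells, SREBF1 and SCD fell in gSOX10 #4, and SREBF2 encodes the sterol branch's own factor. The sequences are RefSeq's, on GRCh38.p14, read 5′ to 3′ on the gene's strand, and stop before the first annotated base of the gene, so that some are shorter than the RefSeq window of 250 bases. Capitals mark 3 motifs searched on both strands: TCACNCCAC, the core of a sterol regulatory element, CCAAT, the NF-Y box, and GGGCGG, the Sp1 box.
STARD4 (chr5:111512591-111512785, strand -): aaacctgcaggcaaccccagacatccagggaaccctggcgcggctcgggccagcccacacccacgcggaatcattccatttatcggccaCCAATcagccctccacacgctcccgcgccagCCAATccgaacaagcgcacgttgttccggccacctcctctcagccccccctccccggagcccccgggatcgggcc
MSMO1 (chr4:165327419-165327666, strand +): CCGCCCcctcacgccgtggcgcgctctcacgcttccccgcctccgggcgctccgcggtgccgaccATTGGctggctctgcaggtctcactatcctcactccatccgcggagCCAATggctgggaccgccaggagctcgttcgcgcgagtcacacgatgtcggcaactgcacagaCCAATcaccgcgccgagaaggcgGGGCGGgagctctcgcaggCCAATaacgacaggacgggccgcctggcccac
INSIG1 (chr7:155297628-155297775, strand +): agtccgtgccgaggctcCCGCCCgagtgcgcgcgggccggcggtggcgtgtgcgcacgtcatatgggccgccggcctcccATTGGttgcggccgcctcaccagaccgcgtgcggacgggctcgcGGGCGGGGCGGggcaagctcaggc
SREBF2 (chr22:41832855-41833104, strand +): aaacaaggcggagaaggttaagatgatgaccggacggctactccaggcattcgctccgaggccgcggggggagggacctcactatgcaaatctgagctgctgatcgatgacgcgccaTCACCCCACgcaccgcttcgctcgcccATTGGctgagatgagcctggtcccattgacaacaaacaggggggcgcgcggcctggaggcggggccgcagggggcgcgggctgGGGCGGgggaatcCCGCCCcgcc
SREBF1 (chr17:17837003-17837236, strand -): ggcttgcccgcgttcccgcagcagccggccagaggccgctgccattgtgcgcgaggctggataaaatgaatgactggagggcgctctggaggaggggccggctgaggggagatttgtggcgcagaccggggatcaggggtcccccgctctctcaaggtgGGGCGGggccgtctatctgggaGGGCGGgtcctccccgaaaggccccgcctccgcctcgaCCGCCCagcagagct
SCD (chr10:100346983-100347232, strand +): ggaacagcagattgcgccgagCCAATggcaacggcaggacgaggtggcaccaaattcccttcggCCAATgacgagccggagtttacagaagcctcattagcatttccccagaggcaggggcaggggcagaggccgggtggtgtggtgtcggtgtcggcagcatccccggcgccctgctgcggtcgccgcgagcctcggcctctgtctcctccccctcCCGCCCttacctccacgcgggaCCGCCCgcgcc

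In these printed stretches, TCACNCCAC occurred only in SREBF2, with 1 match, beside 1 CCAAT and 2 GGGCGG. STARD4 had 2 CCAAT, MSMO1 had 4 CCAAT and 2 GGGCGG, INSIG1 had 1 CCAAT and 3 GGGCGG, of which a pair share bases, SREBF1 had 3 GGGCGG and no CCAAT, and SCD had 2 of each. No match of 1 motif overlapped a match of another. RefSeq windows of 250 bases before the start were on hand for 26 of the 30 members. CCAAT was found in 19 of these 26 members, against 37.0% of 27305 genes with a window, GGGCGG in 25 of 26, against 46.2%, and TCACNCCAC in 1 of 26, against 1.09%. These counts are over whole windows, and the GGGCGG of STARD4 lies in the part of its window that is not printed. The background is every gene with a window, whether tested here or not, while all members passed the filter on low values. The shares are thus not like for like, and whether they are particular to these genes was not tested. A match is a description of letters, not of binding.

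Among the genes of regulation and transport, STARD4, which carries cholesterol between membranes in the cytosol, was higher in every group than in parental A375. It had 986, 2141 and 2116 in gSOX10 #4 and 1897, 2536 and 2346 in gSOX10 #2, against 457, 1112 and 769 in parental A375. Its log2 change was 1.17 ± 0.29 (SE, adjusted p = 0.00347) in gSOX10 #4 and 1.61 ± 0.29 (SE, adjusted p = 0.000189) in gSOX10 #2. All gSOX10 #2 libraries lay above all parental libraries, while the lowest gSOX10 #4 library lay below the highest parental one. The gSOX10 #4 call was lost, with log2 changes of 0.83 to 0.99, without parental replicate 1 or without gSOX10 #4 replicate 2 or 3.

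In the CRT lines STARD4 had 4222, 3735 and 3534 in CRT35 Combo, 4851, 3448 and 3962 in CRT35 DMSO, 2901, 4149 and 4357 in CRT34 Combo and 2342, 2442 and 2541 in CRT34 DMSO. All 12 of these values exceeded every parental value, and those of CRT34 DMSO overlapped gSOX10 #2. The log2 changes against parental A375 were 2.38 ± 0.29 (SE, adjusted p = 1.6e-06) in CRT35 Combo, 2.47 ± 0.29 (SE, adjusted p = 1.39e-06) in CRT35 DMSO, 2.35 ± 0.29 (SE, adjusted p = 2.7e-06) in CRT34 Combo and 1.74 ± 0.29 (SE, adjusted p = 8.96e-05) in CRT34 DMSO. CRT35 DMSO replicate 1, the shallowest library, held the highest value, and the change in CRT35 DMSO was 2.34 without it.

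INSIG1, which retains SCAP, had 2373, 2431 and 2680.3 in CRT35 Combo and 4032, 2280.2 and 3315 in CRT35 DMSO, against 778, 1570.2 and 1317 in parental A375. It rose by 1.09 ± 0.29 (SE, adjusted p = 0.00446) on the log2 scale in CRT35 Combo and by 1.41 ± 0.29 (SE, adjusted p = 0.000702) in CRT35 DMSO, with no overlap between either group and parental A375. The CRT35 Combo call was lost without parental replicate 1, the lowest parental library for INSIG1, at 0.79. In CRT34 Combo INSIG1 had 1603, 2544 and 1947 and in CRT34 DMSO 3298, 1471 and 1696, with changes of 0.77 (adjusted p = 0.0378) and 0.78 (adjusted p = 0.0382) that passed the p but not the fold. Replicate 1 was the highest of CRT34 DMSO, and without replicate 2 that group was called, at 1.01. In the clones, INSIG1 had 975, 822 and 679.7 in gSOX10 #4 and 1642, 1515 and 1163 in gSOX10 #2, with changes of -0.52 (adjusted p = 0.171) and 0.28 (adjusted p = 0.46) against parental A375.

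SREBF1, the fatty acid branch's factor, differed between the clones. It had 1753, 1725 and 1142 in gSOX10 #4 and 3113, 4182 and 4359 in gSOX10 #2, against 2136, 3814 and 3533 in parental A375. The 3 gSOX10 #4 libraries lay below all others of these groups. The change against parental A375 was -1.02 ± 0.23 (SE, adjusted p = 0.00199) in gSOX10 #4 and 0.33 ± 0.23 (SE, adjusted p = 0.269) in gSOX10 #2. The fall in gSOX10 #4 was just past the 2-fold limit and was not called without parental replicate 2 or 3, without gSOX10 #4 replicate 3, or with libraries set to equal totals or quantile normalized, with log2 changes of -0.96 to -0.82. SREBF1 had 3123, 2007 and 3237 in CRT35 Combo, 2896, 3001 and 2804 in CRT35 DMSO, 2115, 1589.9 and 1752 in CRT34 Combo and 1774, 2462 and 1852 in CRT34 DMSO. The CRT34 changes against parental A375 were -0.76 (adjusted p = 0.0113) with Combo and -0.61 (adjusted p = 0.0416) with DMSO, under the fold limit, and the first was called, at -1.02, without parental replicate 1. The CRT35 changes were -0.17 (adjusted p = 0.57) and -0.08 (adjusted p = 0.809).

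SREBF2, the sterol branch's factor, was called in no comparison. It had 4472, 4568 and 4002 in gSOX10 #4 and 3211, 4418 and 3831 in gSOX10 #2, against 3386, 5152 and 4728 in parental A375. With both inhibitors it had 5603, 4720.4 and 5904 in CRT35 Combo and 5355, 6530.3 and 6074 in CRT34 Combo, and with DMSO 4976, 3723 and 4049 in CRT35 and 4390.2, 4212 and 3836 in CRT34. Its changes against parental A375 ran from -0.20 in gSOX10 #2 to 0.45 in CRT34 Combo, and the last alone passed the p (adjusted p = 0.0244). SCAP had 2516, 2431 and 2395 in CRT35 Combo and 2069.5, 2100.3 and 2151 in CRT35 DMSO, against 4277, 4000.0 and 3629.6 in parental A375. These CRT35 values lay below every parental value, and the changes of -0.69 ± 0.14 (SE, adjusted p = 0.000374) and -0.91 ± 0.14 (SE, adjusted p = 3.2e-05) passed the p but not the 2-fold limit. In the other groups SCAP had 5267, 3441 and 3599.6 in gSOX10 #4, 2963, 3575 and 3555 in gSOX10 #2, 3334, 3015 and 3387 in CRT34 Combo and 3671, 3589.9 and 3102 in CRT34 DMSO, with changes of -0.29 to 0.02, none past the p.

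**Figure D2:**
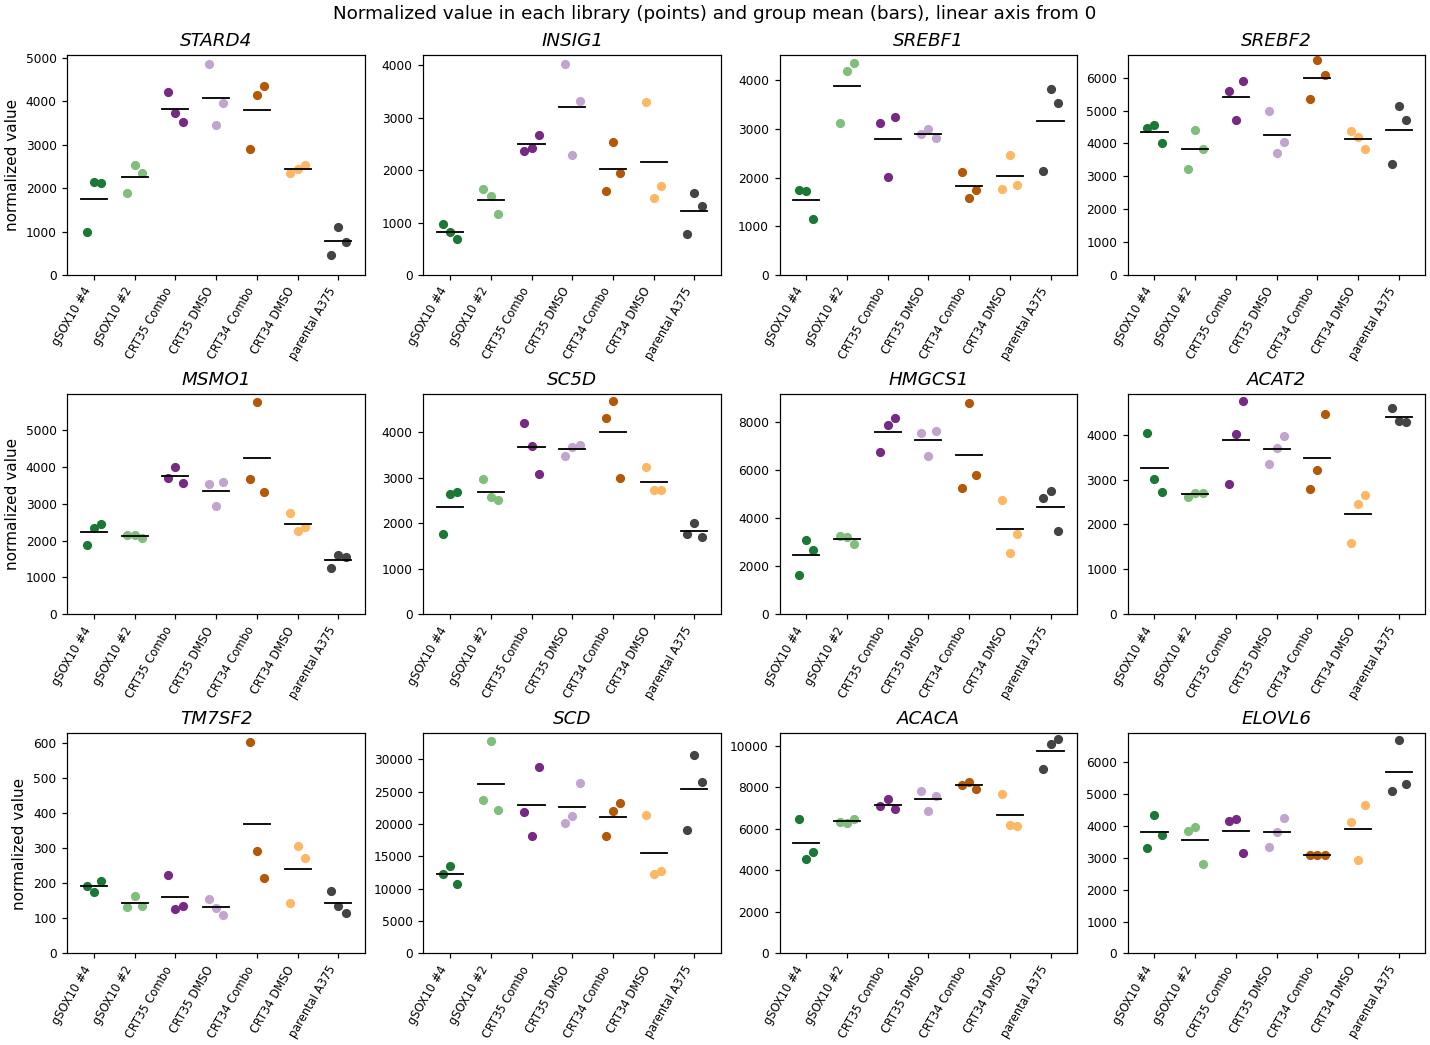
Normalized value (linear axes from 0) in each library (points) and group mean (bars) for 12 members in the 7 groups, with one panel per gene. STARD4 and MSMO1 stand above parental A375 in the means of all 6 other groups, ACACA and ELOVL6 below it, and SREBF1 and SCD have their lowest group mean in gSOX10 #4.

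In the mevalonate pathway, 1 of 7 genes was called against parental A375, in CRT34 DMSO only, where 7.35% of all genes were called lower. ACAT2, which joins acetyl-CoA units at the head of the pathway, fell in CRT34 DMSO, with 1593, 2463 and 2647, against 4598, 4304 and 4279 in parental A375. The groups did not overlap, and the log2 change was -1.01 ± 0.21 (SE, adjusted p = 0.000736). This value was at the 2-fold limit, and it was not called without parental replicate 1 (-0.98), without CRT34 DMSO replicate 1 (-0.78), with equal totals (-0.99) or with quantile normalization (-0.98). ACAT2 had 4034, 3005 and 2719 in gSOX10 #4, 2609.8, 2694 and 2711 in gSOX10 #2, 2893, 4011 and 4744 in CRT35 Combo, 3338, 3712 and 3979.7 in CRT35 DMSO and 2796, 3220.0 and 4452 in CRT34 Combo. Of these groups gSOX10 #2 alone passed the p, at -0.72 (adjusted p = 0.00909).

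HMGCS1, the synthase that makes HMG-CoA, stood lower in the clones and higher in CRT35 than in parental A375. It had 1644, 3097 and 2680.2 in gSOX10 #4 and 3269, 3205 and 2930.4 in gSOX10 #2, against 4862, 5125 and 3489 in parental A375. It had 6777, 7876 and 8200.5 in CRT35 Combo, 7555, 6588 and 7631 in CRT35 DMSO, 5277, 8821 and 5824 in CRT34 Combo and 4747, 2561 and 3357 in CRT34 DMSO. Every CRT35 library was above, and every clone library below, all 3 parental libraries. The changes of -0.89 ± 0.24 (SE, adjusted p = 0.00643) in gSOX10 #4, 0.78 ± 0.24 (SE, adjusted p = 0.0106) in CRT35 Combo and 0.71 ± 0.24 (SE, adjusted p = 0.0223) in CRT35 DMSO passed the p but were under 2-fold. That of gSOX10 #4 was called at -1.06 without parental replicate 3 and at -1.08 without gSOX10 #4 replicate 2. In gSOX10 #2 the change was -0.50 (adjusted p = 0.0976). The other 5 genes, MVK, PMVK, MVD, IDI1 and FDPS, which carry mevalonate on to farnesyl diphosphate, were called in no comparison. The median of the 7 genes ran from -0.33 in CRT34 DMSO to 0.17 in CRT35 Combo.

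Between squalene and cholesterol, 3 of 11 genes were called against parental A375, all in CRT cells and all higher. By comparison, 3 were called higher in CRT34 Combo (19.1% of all genes) and 0 in CRT34 DMSO (15.7%). In CRT35 Combo 1 was called higher (20.1%), and in CRT35 DMSO 1 (15.7%). MSMO1, the sterol methyl oxidase, had 3698, 4012 and 3559 in CRT35 Combo, 3528, 2936 and 3599 in CRT35 DMSO, 3689.9, 5758 and 3312 in CRT34 Combo and 2757, 2249 and 2381 in CRT34 DMSO, against 1249, 1604 and 1554 in parental A375. Each of these 12 values exceeded all parental values. It rose by 1.36 ± 0.17 (SE, adjusted p = 2.87e-06) in CRT35 Combo, 1.19 ± 0.17 (SE, adjusted p = 1.76e-05) in CRT35 DMSO and 1.50 ± 0.17 (SE, adjusted p = 1.3e-06) in CRT34 Combo, and the change of 0.75 in CRT34 DMSO passed the p (adjusted p = 0.00185) but not the fold. In the clones it had 1869, 2353 and 2456 in gSOX10 #4 and 2160.3, 2164 and 2076 in gSOX10 #2, again above all parental values, with changes of 0.60 (adjusted p = 0.0101) and 0.55 (adjusted p = 0.0149). MSMO1 and STARD4 were the 2 of 30 members that passed the p in the higher direction in all 6 comparisons with parental A375, as did 6.38% of all genes.

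SC5D, the sterol desaturase of the late pathway, had 4204, 3699 and 3082 in CRT35 Combo, 3473, 3665 and 3717 in CRT35 DMSO, 4308, 4683 and 2996 in CRT34 Combo and 3242, 2723 and 2732 in CRT34 DMSO, against 1772, 1995 and 1696 in parental A375. No CRT library reached down to the parental ones. It rose by 1.11 ± 0.18 (SE, adjusted p = 5.15e-05) in CRT34 Combo, and was not called there without CRT34 Combo replicate 2 (0.98). In CRT35 Combo and CRT35 DMSO the changes of 0.999 and 0.99 lay just under the limit and passed it in some alternatives, among them leaving out parental replicate 2 (1.07 and 1.06). In the clones SC5D had 1753, 2631 and 2684 in gSOX10 #4 and 2980.1, 2573 and 2519 in gSOX10 #2. TM7SF2, a sterol reductase of low value, had 603, 293 and 215 in CRT34 Combo, against 178, 136 and 114 in parental A375. It rose by 1.25 ± 0.34 (SE, adjusted p = 0.00595) there, and replicate 1 carried much of it: without that library the change was 0.83, and after quantile normalization 0.89, and neither was called. TM7SF2 had 193, 174 and 206 in gSOX10 #4, 132, 164 and 134 in gSOX10 #2, 224, 127 and 136 in CRT35 Combo, 156, 131 and 109 in CRT35 DMSO and 143, 306 and 271 in CRT34 DMSO. Without CRT34 DMSO replicate 1 it was called higher in CRT34 DMSO than in parental A375, at 1.03.

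The other 8 genes of the block, FDFT1, SQLE, LSS, CYP51A1, NSDHL, HSD17B7, EBP and DHCR7, were called in no comparison with parental A375. In alternatives DHCR7 was called higher in CRT34 Combo, at 1.02, with equal totals and without CRT34 Combo replicate 1 or 3. The median of the 11 genes was 0.10 in gSOX10 #4, 0.07 in gSOX10 #2, 0.21 in CRT35 Combo, 0.21 in CRT35 DMSO, 0.46 in CRT34 Combo and -0.05 in CRT34 DMSO. Their summed value, which the most abundant genes dominate, was 34190 to 36710 in CRT35 Combo, 32926 to 34946 in CRT35 DMSO and 34369 to 44036 in CRT34 Combo, against 25712 to 29657 in parental A375. The sums of CRT34 DMSO, at 25906 to 31135, and of both clones, at 25783 to 29161 in gSOX10 #4 and 25904 to 27694 in gSOX10 #2, overlapped the parental sums.

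**Figure D3:**
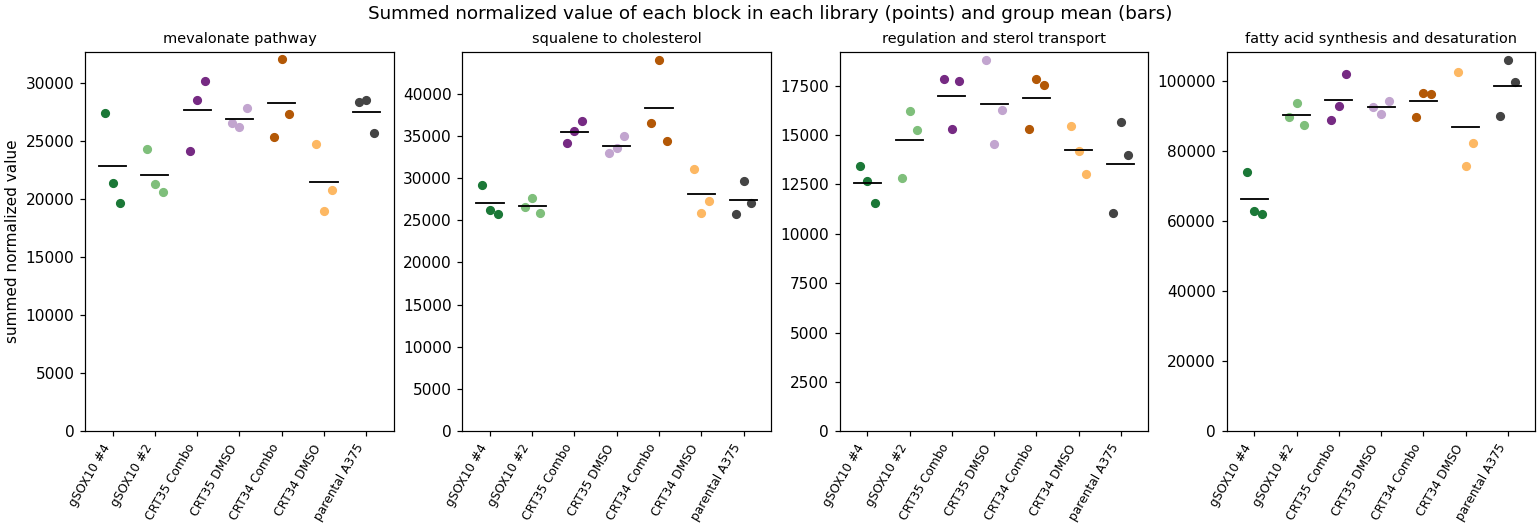
Summed normalized value (axes from 0) of the genes of each of the 4 blocks, in each library (points) and as group means (bars). The 3 gSOX10 #4 libraries have fatty acid sums of 61931 to 73930, below all others, and CRT35 Combo, CRT35 DMSO and CRT34 Combo have the highest squalene-to-cholesterol sums.

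Among the fatty acid genes, all 7 had negative log2 changes in gSOX10 #4 (median -0.58), as had 9718 of all 19290 genes. The p was passed in the lower direction by 4 (18.8% of all genes) and SCD, the desaturase that makes monounsaturated fatty acids, was called. Such values were not confined to that clone. In the lower direction 3 of 7 passed the p in gSOX10 #2 (median -0.49, 20.2% of all genes) and 3 in CRT34 DMSO (median -0.56, 18.8% of all genes). The lower direction of the p was passed by 2 of 7 in CRT35 Combo (median -0.15, 23.5% of all genes), 2 in CRT35 DMSO (median -0.15, 19.2%) and 2 in CRT34 Combo (median -0.25, 21.5%). SCD had 12334, 13526 and 10743 in gSOX10 #4 and 23632, 32879.8 and 22177 in gSOX10 #2, against 19004, 30659.6 and 26524 in parental A375. The gSOX10 #4 libraries lay below all libraries of both other groups. SCD fell by 1.04 ± 0.22 on the log2 scale in gSOX10 #4 (SE, adjusted p = 0.00132), and its change in gSOX10 #2 was 0.05 (adjusted p = 0.872). The call in gSOX10 #4 was lost without parental replicate 2 or 3 or gSOX10 #4 replicate 3 (-0.99 to -0.89), with equal totals (-0.93) and with quantile normalization (-0.87). In CRT cells SCD had 21811, 18219 and 28764 in CRT35 Combo, 20163, 21214 and 26372 in CRT35 DMSO, 18181, 21973 and 23239.7 in CRT34 Combo and 21434, 12314 and 12808 in CRT34 DMSO. CRT34 DMSO alone passed the p, at -0.73 (adjusted p = 0.0136). The summed value of the 7 genes was 61931 to 73930 in gSOX10 #4 and 87366 to 93686 in gSOX10 #2, against 90194 to 106150 in parental A375.

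ACACA, ELOVL6, FASN, FADS2, ACLY and DHCR7 are described with values although no call chose them, and were picked after their values were seen. ELOVL6, which lengthens saturated fatty acids, was the 1 member of 30 to pass the p in the lower direction in all 6 comparisons with parental A375 (5.18% of all genes), with changes of -0.87 in CRT34 Combo to -0.56 in CRT34 DMSO, none 2-fold. It had 3325, 4361 and 3710.3 in gSOX10 #4 and 3854, 3981 and 2808 in gSOX10 #2, against 5085, 6709 and 5314 in parental A375, and no library of any other group reached the lowest parental value. ACACA, the acetyl-CoA carboxylase that commits carbon to fatty acids, had 6467, 4559 and 4889.9 in gSOX10 #4 and 6341, 6285 and 6485 in gSOX10 #2, against 8899.9, 10083 and 10306 in parental A375, with changes of -0.89 ± 0.12 (SE, adjusted p = 1.5e-05) and -0.61 ± 0.12 (SE, adjusted p = 0.000519), and in gSOX10 #4 it was called at -1.04 without replicate 1. FADS2, a polyunsaturated fatty acid desaturase, was lower in gSOX10 #2, with 1166, 1369 and 1245, than in parental A375, with 2171, 2629 and 2313 (change -0.91 ± 0.16 (SE, adjusted p = 0.0002)). FASN, the fatty acid synthase, spread from 4223 to 14771 in CRT34 Combo, and its change there of -0.93 (adjusted p = 0.0207) was called at -1.40 without CRT34 Combo replicate 1. No fatty acid gene among the 30 members rose 2-fold in any comparison.

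With both inhibitors, none of the 30 members was called in either CRT line. In CRT35, 1.14% of all genes were called and 0 of 30 members passed even the p alone (1.57% of all genes). In CRT34, 5.10% of all genes were called and 5 of 30 members passed the p alone, all higher (7.86% of all genes, 4.06% in the higher direction). These were DHCR7, the last reductase of the pathway, at 0.96 ± 0.19 (SE, adjusted p = 0.00395), HMGCS1 at 0.91 ± 0.24 (SE, adjusted p = 0.0236), MVK, the mevalonate kinase, at 0.77 ± 0.21 (SE, adjusted p = 0.0277), MSMO1 at 0.75 ± 0.17 (SE, adjusted p = 0.0112) and SREBF2 at 0.53 ± 0.16 (SE, adjusted p = 0.0475). DHCR7 had 3747, 5739 and 3759 in CRT34 Combo, against 3016, 1708 and 2109.8 in CRT34 DMSO, and MVK had 1393, 1260.3 and 1152 in CRT34 Combo, against 844, 608 and 792 in CRT34 DMSO. In each of the 5 genes every CRT34 Combo library was above every CRT34 DMSO library, as in 90.3% of the 784 genes that passed the p in the higher direction and 12.2% of all genes. DHCR7 was called with equal totals (1.05), with quantile normalization (1.02), and without CRT34 Combo replicate 1 (1.07), CRT34 Combo replicate 3 (1.07) or CRT34 DMSO replicate 1 (1.19), and HMGCS1 without CRT34 Combo replicate 1 (1.06) or CRT34 DMSO replicate 1 (1.14). The CRT34 comparison depended on the fit. With only the CRT34 libraries fitted, far fewer of all genes were called, and 22.5% of those were higher, against 55.6% in the main fit. Whether the 5 members passed the p in that fit is not given here.

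All 11 squalene-to-cholesterol genes had positive changes with the inhibitors in CRT34 (median 0.39, range 0.23 to 0.96), and 6 of the 11 in CRT35 (median 0.01, range -0.19 to 0.37), beside medians of all genes of 0.0008 and 0.014. Of all 19290 genes, 9666 had positive changes in CRT34 and 9951 in CRT35. The p was passed by 2 of the 11 in CRT34 and 0 in CRT35. These genes were measured in the same libraries, so their signs are not independent of each other. Over the 30 members the medians were 0.30 in CRT34 and 0.02 in CRT35. The 7 fatty acid genes had medians of -0.17 in CRT34 and 0.01 in CRT35, and none passed the p in either line. The difference between the lines was tested directly for every gene and called for no member, with adjusted p of at least 0.594. HMGCS1 had the largest difference, CRT35 minus CRT34, at -0.84 (interval -1.55 to -0.14), followed by STARD4 at -0.70 (interval -1.55 to 0.15) and DHCR7 at -0.64 (interval -1.20 to -0.07), and the 95% intervals of all 3 genes hold differences of more than 2-fold. Only 0.0104% of all genes were called in that test.

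**Figure D4:**
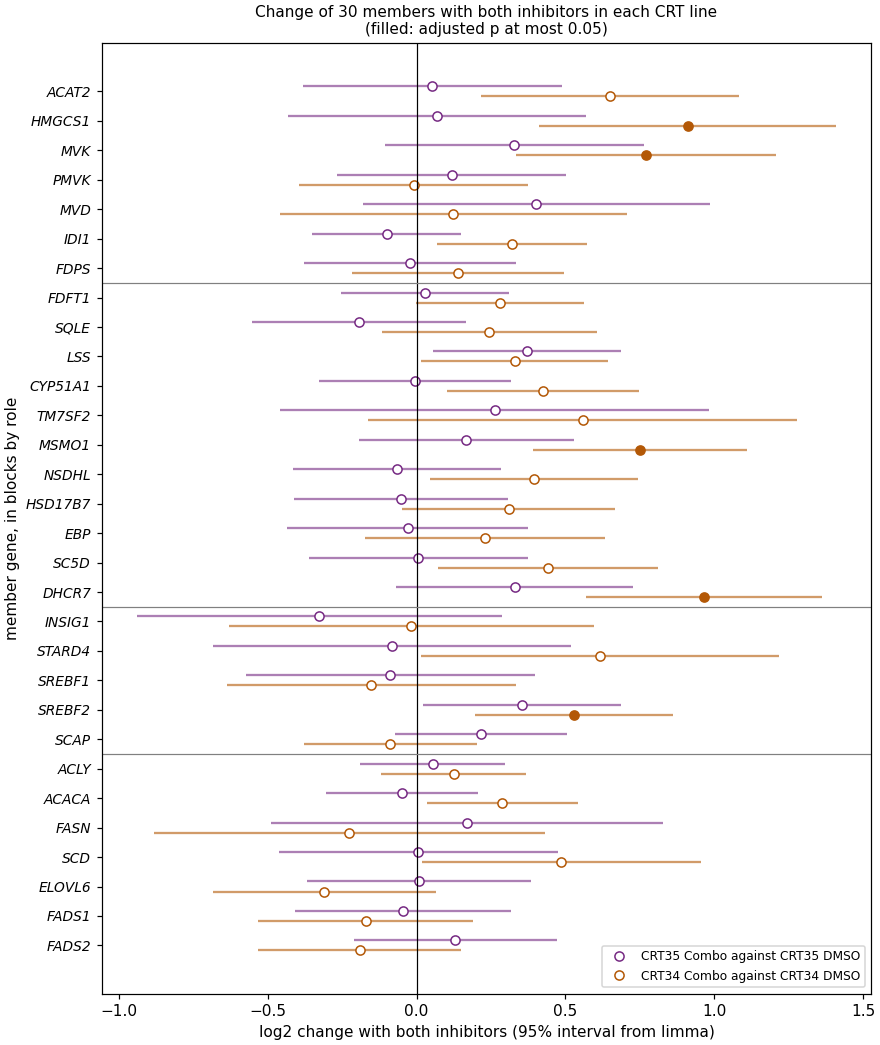
log2 change of each of the 30 members with both inhibitors, Combo over DMSO, in CRT35 (purple) and CRT34 (orange), with 95% limma intervals not adjusted for the number of genes. Filled points passed the adjusted p, which were 5 members in CRT34 and 0 in CRT35; the 11 squalene-to-cholesterol genes in CRT34 all lie to the right of 0.

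Set against each other directly, gSOX10 #4 and gSOX10 #2 differed in 2 of 30 members, both lower in gSOX10 #4, where 9.70% of all genes were called and 7.06% were lower. SREBF1 differed by -1.35 ± 0.23 (SE, adjusted p = 0.000424) and SCD by -1.09 ± 0.22 (SE, adjusted p = 0.00182), and in both genes every gSOX10 #4 library was below every gSOX10 #2 library, as in 19.1% of all genes. The SCD call was lost without gSOX10 #2 replicate 2 (-0.91) or gSOX10 #4 replicate 3 (just under the limit), and that of SREBF1 was kept in every alternative run. ACLY, which supplies cytosolic acetyl-CoA, was lower in gSOX10 #4 by -0.64 ± 0.12 (SE, adjusted p = 0.000643) and FADS2 higher by 0.62 ± 0.16 (SE, adjusted p = 0.0102), both under 2-fold. Between the solvent groups of the tumor-derived lines, CRT35 DMSO and CRT34 DMSO differed in 1 of 30 members (8.11% of all genes). HMGCS1 was higher in CRT35 DMSO by 1.07 ± 0.24 (SE, adjusted p = 0.00439), with no overlap (share of all genes not given). At 0.86 it was not called without CRT34 DMSO replicate 2. TM7SF2 was called lower in CRT35 DMSO, at -1.14, without CRT34 DMSO replicate 1. Of the 30 members 25 had a positive sign in this comparison (median 0.20, all genes 0), as had 9592 of all 19290 genes. The fibroblast sums of these groups, given above, overlapped, while the leukocyte sums, 7750 to 8348 in CRT35 DMSO and 3187 to 6167 in CRT34 DMSO, did not. The part of either in these differences was not tested.

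Beyond the members, 39 further genes of sterol and fatty acid synthesis, handling and control were listed, of which 36 could be tested. Of these 3 rose and 2 fell in gSOX10 #4, where 11.8% and 8.91% of all genes did, and 6 rose and 3 fell in gSOX10 #2, where 15.9% and 7.78% did. Called in gSOX10 #4 but not gSOX10 #2 was LBR, the lamin B receptor with sterol reductase activity, lower by -1.09 ± 0.27 (SE, adjusted p = 0.00337). Among those called in gSOX10 #2 but not gSOX10 #4, SCD5, ELOVL3 and OLAH were higher and MID1IP1, an activator of acetyl-CoA carboxylase, lower. All of these but ELOVL3 were also called in CRT groups. Over the 6 comparisons with parental A375, LBR was called lower in 3, MID1IP1 lower in 5, OLAH higher in 5 and SCD5 higher in 2. Those called in both clones were ACSS2, which makes acetyl-CoA from acetate, SLC25A1, the mitochondrial citrate carrier, ELOVL7 and ELOVL2. ACSS2 had 2249, 1542 and 1903 in gSOX10 #4 and 2373, 2838 and 2592 in gSOX10 #2, against 667, 881 and 721 in parental A375, with changes of 1.32 ± 0.15 (SE, adjusted p = 2.47e-06) and 1.79 ± 0.15 (SE, adjusted p = 6.18e-08). SLC25A1 had 3930.2, 2293 and 2184 in gSOX10 #4 and 2584, 2821 and 2519.8 in gSOX10 #2, against 1171, 1351 and 1293 in parental A375. ACSS2 and SLC25A1 thus stood above all parental values in every clone library, a pattern whose share among all genes is not given here. ELOVL7, an elongase of long fatty acids, was called higher in all 6 comparisons with parental A375, as were 3.92% of all genes. Its changes ran from 1.17 in CRT34 DMSO to 2.27 in CRT35 Combo. ELOVL2, an elongase of polyunsaturated fatty acids, fell in the clones, by -1.48 ± 0.42 (SE, adjusted p = 0.00974) and -2.99 ± 0.42 (SE, adjusted p = 1.9e-05), and rose in CRT35, by 1.84 ± 0.42 (SE, adjusted p = 0.00132) with Combo and 1.18 ± 0.42 (SE, adjusted p = 0.0306) with DMSO.

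Of 16 genes of cholesterol efflux, storage and oxysterols, 15 could be tested, of which 2 rose and 2 fell in gSOX10 #4 (11.8% and 8.91% of all genes) and 4 rose and 2 fell in gSOX10 #2 (15.9% and 7.78%). In CRT35 Combo 3 rose and 0 fell (20.1% and 10.2%), and in CRT35 DMSO 2 and 0 (15.7% and 7.98%). In CRT34 Combo 2 rose and 0 fell (19.1% and 8.09%), and in CRT34 DMSO 3 and 1 (15.7% and 7.35%). APOE was called higher in 4 comparisons with parental A375 and in neither clone. The highest log2 change of the list was 4.78, in CRT34 DMSO. In gSOX10 #2 alone NPC2, which hands on lysosomal cholesterol, rose by 1.73 ± 0.14 (SE, adjusted p = 2.13e-08) and CYP27A1, which oxidizes cholesterol, fell by 1.53 ± 0.28 (SE, adjusted p = 0.000244). ABCA1, the exporter that loads cholesterol onto apolipoproteins, was called higher in all 6 comparisons with parental A375, as were 3.92% of all genes. It had 821, 2048 and 2446 in gSOX10 #4, 2811, 3604 and 2751 in gSOX10 #2, 7459.8, 4609 and 5454 in CRT35 Combo, 8672, 5191 and 5989 in CRT35 DMSO, 1950.5, 1541 and 4594 in CRT34 Combo and 5557, 3897 and 4890.1 in CRT34 DMSO, against 538, 643 and 681 in parental A375. All 18 values lay above the 3 parental ones, and the changes ran from 1.37 ± 0.37 (SE, adjusted p = 0.00654) in gSOX10 #4 to 3.38 ± 0.37 (SE, adjusted p = 6.11e-07) in CRT35 DMSO. NR1H3, which encodes a liver X receptor, had 1286, 1436 and 1412 in gSOX10 #4 and 1287, 3360.3 and 2215 in gSOX10 #2, against 423, 802 and 623 in parental A375, and rose in both clones, by 1.21 ± 0.33 (SE, adjusted p = 0.007) and 1.83 ± 0.33 (SE, adjusted p = 0.000201).

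ABCG1, the other exporter, parted the clones: it had 12.8, 4.66 and 5.41 in gSOX10 #4 and 225, 230.1 and 206 in gSOX10 #2, against 35.6, 64.4 and 63.7 in parental A375. It fell by 2.76 ± 0.53 in gSOX10 #4 (SE, adjusted p = 0.00046) and rose by 2.04 ± 0.53 (SE, adjusted p = 0.00422) in gSOX10 #2, and the clones differed by -4.80 ± 0.53 (SE, adjusted p = 3.93e-06). The difference of ABCA1 between the clones was -0.92 (adjusted p = 0.0841). TMEM97, a sterol-regulated membrane protein, had 1598, 1271 and 1093 in gSOX10 #4 and 2722, 1319 and 1711 in gSOX10 #2, against 4483, 3769.9 and 3492 in parental A375, and fell in both clones, by -1.58 ± 0.29 (SE, adjusted p = 0.00037) and -1.09 ± 0.29 (SE, adjusted p = 0.00584). With the inhibitors, no gene of either further list was called in both CRT lines. In CRT34, ELOVL7 rose by 1.05 ± 0.30 (SE, adjusted p = 0.0406) and ABCG1 fell by 1.75 ± 0.53 (SE, adjusted p = 0.0482), and in CRT35 none was called.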

How the data were processed

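RNA-seq was done on 21 libraries of A375 cells in 7 groups of 3. Per the labels and the study's methods, libraries were made with a TruSeq kit (the labels and the methods name different versions, so strandedness is uncertain and reads of overlapping antisense genes may not be separated), reads were aligned with STAR 2.6.1a to GRCh38 and quantified with RSEM, and DESeq2 and Picard are named in the submitters' processing notes. The deposited tables hold 1 value per gene, a normalized signal scaled by library size factors and not raw counts: the authors' totals ran from 59.2 to 68.3 M, and the median ratio to the gene-wise geometric means was 1.01 in every library. Count models were therefore not used.

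Depth was estimated from the smallest step between low values (0.821 to 2.29), giving 27.4 to 75.6 M reads; 25.7 to 63.7% of values under 10 steps lay within 0.05 of a whole multiple, so whole reads were not recovered. Gene IDs were matched to GENCODE version 44 (58472 of 58870).

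Values were tested as log2(value + 1) with limma 3.58.1 in R 4.3.3 (trend, 1 mean per group, all 21 libraries, 14 residual and 4.70 prior degrees of freedom). The fit took the 19290 genes, of 32889 above 0 anywhere, that reached 10 in 3 or more libraries. Fold changes on this scale understate those of low genes. P-values were adjusted by Benjamini-Hochberg over all 19290 genes, and calls needed an adjusted p of at most 0.05 and at least a 2-fold difference, the study's thresholds. All adjusted p in the text are from limma. The test was tried on simulated data first.

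The members and lists were chosen with earlier results of these data known. Values in every library were given for SREBF1, SREBF2, INSIG1, SCAP and each member called in any comparison, and further genes were named when called in both clones or in both inhibitor comparisons; genes named outside this rule were picked after their values were seen. Motifs were searched in Python 3.11.15 (pandas 2.3.3) in the 250 bases before each RefSeq start. Alternatives were a pseudocount of 10, no filter, a fit of the compared groups alone, a replicate block, equal totals, quantile normalization, no fold threshold, and leaving out each library in turn or CRT34 Combo replicate 3 with CRT35 DMSO replicate 1. Of 15 pairs of groups that share title numbers, only CRT34 Combo with CRT35 Combo had same-number correlations of deviations over 0.1 throughout (0.218, 0.253 and 0.207), so numbers were not taken to pair the other groups.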

Additional observations from a re-analysis of the deposited data

Results flagged for a closer look

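The 3 members named here differed between lines set against the same parental libraries when the difference itself was tested in limma. SREBF1 was lower in gSOX10 #4 than in gSOX10 #2 by a log2 difference of -1.35 (adjusted p = 0.000424), with all 3 libraries of gSOX10 #4 below all 3 of gSOX10 #2. SCD was lower in gSOX10 #4 than in gSOX10 #2 by -1.09 (adjusted p = 0.00182), again without overlap, as in 19.1% of all genes. HMGCS1 was higher in CRT35 DMSO than in CRT34 DMSO by 1.07 (adjusted p = 0.00439), without overlap (share of all genes not given). The gSOX10 #4 and gSOX10 #2 groups are 1 clone each and CRT35 and CRT34 1 line each, so the guide or line and the clone cannot be told apart.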

How the results depend on the processing

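No called member changed direction in any alternative. Calls against parental A375 numbered 3 in gSOX10 #4, 1 in gSOX10 #2, 3 in CRT35 Combo, 3 in CRT35 DMSO, 4 in CRT34 Combo and 2 in CRT34 DMSO. Without the fold threshold they numbered 9, 10, 11, 10, 15 and 10 in that order, and with the inhibitors 5 in CRT34 in place of 0, between the clones 4 in place of 2, and between CRT35 DMSO and CRT34 DMSO 3 in place of 1. With equal totals and, separately, with quantile normalization, gSOX10 #4 and CRT34 DMSO kept 1 call each and the CRT34 inhibitor comparison gained 1, DHCR7. Rescaling to equal totals moved the median of all genes to 0.15 in gSOX10 #2, 0.14 in CRT34 Combo and 0.13 in CRT35 Combo, and quantile normalization to between -0.13 and -0.10 in the 4 CRT groups. Quantile normalization also lowered the share of called genes that were higher, from 66.4% to 50.8% in CRT35 Combo and from 70.2% to 51.8% in CRT34 Combo. Leaving out single libraries gave 0 to 4 calls in gSOX10 #4, 1 in gSOX10 #2, 2 to 4 in CRT35 Combo, 3 to 4 in CRT35 DMSO, 3 to 5 in CRT34 Combo, 1 to 3 in CRT34 DMSO, 0 to 2 in the CRT34 inhibitor comparison, 0 in that of CRT35, 1 to 2 between the clones and 0 to 2 between the DMSO groups. The 0 in gSOX10 #4 came without gSOX10 #4 replicate 3, and without parental replicate 2 it was 1. Where gSOX10 #4 replicates were left out, its 2 other libraries were assumed to vary like the other groups.

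The replicate block, used only where title numbers are shared, left every member count as it was (3 in gSOX10 #4, 3 in CRT35 Combo, 3 in CRT35 DMSO, 4 in CRT34 Combo, 2 in CRT34 DMSO, 0 in both inhibitor comparisons, 1 between the DMSO groups). Among all genes the block gave 89 calls in the CRT34 inhibitor comparison and 412 in that of CRT35, against 983 and 219, and with only the compared groups and no block the first was 80. The direct test of CRT35 against CRT34 inhibitor effects called 2 genes, 223 without CRT34 Combo replicate 3 and 1 with the block, and 0 members in all of these. No paired analysis was possible for gSOX10 #2 because its titles carry other numbers.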
